A study of Homo sapiens with 40 samples.

Results

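SOX9, LEF1 and 6 genes of or beside the Wnt signalling pathway were followed across LNCaP cells given the antiandrogen MDV3100, also called enzalutamide. LNCaP is an established human prostate cancer line that depends on the androgen receptor. The 8 genes were SOX9, LEF1, TCF7L2, AXIN2, CTNNB1, NKD1, LGR4 and RFX6. They were chosen because the signals of SOX9 and LEF1, and also of RFX6, were higher under MDV3100 in the resistant clones, and the others because they belong to the Wnt pathway. The response of the clones, and its difference from the response of the control lines, is therefore described for these genes without a test. Each gene was read from its brightest probe set among those that the platform annotation pairs with that gene alone. Of the 8 genes, 7 were among the 11853 genes bright enough to be tested, and NKD1 lay just below that limit.

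The arrays came from 3 control LNCaP lines labelled as sensitive to MDV3100 and from 7 LNCaP clones labelled as resistant, numbered 1, 9, 10, 14, 15, 19 and 24. The control lines are called Control 1, Control 2 and Control 3 and carry the titles D+E-, D+R- and M+R-, which the labels do not explain. All lines were grown in RPMI-1640 medium with 10% fetal calf serum, plated for 3 days, and then held for 24 h in 10 µM MDV3100 or in 0.1% DMSO, the solvent. Each line and treatment had an array numbered replicate 1 and another numbered replicate 2, which gave 6 control DMSO, 6 control MDV3100, 14 clone DMSO and 14 clone MDV3100 arrays. Each clone is 1 line, and the labels do not say how it was derived. Whether the replicates came from separately grown cells is not given in the labels. Where arrays or pairs are compared within lines, the p-values therefore reflect only how much these arrays varied, which may be technical variation. Where the line is the replicate, they reflect only how much these lines varied, technical variation included.

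In canonical Wnt signalling, a Wnt ligand binds a Frizzled receptor and its LRP co-receptor, and the cytoplasmic complex that marks beta-catenin for destruction is switched off. Beta-catenin, the product of CTNNB1, then enters the nucleus and acts with the DNA-binding proteins LEF1 and TCF7L2 on genes such as AXIN2 and NKD1, whose products dampen the pathway again. LGR4 is a receptor for R-spondins, which amplify the signal at the cell surface. SOX9 is a transcription factor of the SRY-related family that is needed for prostate bud growth in development, and RFX6 is a winged-helix transcription factor best known from the development of the pancreatic islets.

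The 20 arrays that share a replicate number are called a replicate set here, and the sets stood apart. The mean of each treatment and class over both sets was removed first. The DMSO and MDV3100 arrays of the same line and replicate number then correlated at 0.479 to 0.874. The median was 0.782 over 20 pairs, and these values include the difference between sets. Another measure removed only the mean of each gene over all 40 arrays. By it, arrays of the same line and treatment from the other set correlated at a median of -0.408. Of 40 such values, 30 were below 0. Removing that mean itself lowers correlations between sets that differ, so these measures cannot be set side by side. By the latter measure, 36 of the 40 arrays were most like an array of their own set. The Control 2 and Clone 1 arrays of replicate 2 stood furthest from their labels, and results that rest on them are given with and without them. Prostate luminal markers were present, with 7 of 7 named ones above the brightness limit and a summed signal of 6390 to 14575 in control lines and 5969 to 16131 in clones, while 0 of 4 basal and 0 of 4 immune markers passed it, and 1 of 5 neuroendocrine (SYP) and 1 of 3 endothelial markers (VWF) did. Among stromal genes 4 of 7 passed (COL1A1, COL3A1, ACTA2 and PDGFRB), with summed signals of 371.4 to 1219 in control lines and 379 to 1093 in clones.

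Stretches before the transcription start of LEF1 and of one TCF7L2 form are shown. LEF1 was the member with the clearest response in the control lines. TCF7L2 was the only member called for a difference between replicate sets and for a pooled level difference between clones and control lines. Both are RefSeq sequences of build GRCh38.p14, 250 bases upstream of the start, read 5′ to 3′ on the gene's strand. The LEF1 stretch lies at chr4:108166302-108166551 on the minus strand, and the TCF7L2 stretch at chr10:113126383-113126632 on the plus strand, before the second of 3 listed starts, the one with the most matches. Capitals mark matches to the TCF/LEF core CTTTG, to the androgen response half-site AGAACA and to the SOX core ACAAT, each searched on both strands.
LEF1: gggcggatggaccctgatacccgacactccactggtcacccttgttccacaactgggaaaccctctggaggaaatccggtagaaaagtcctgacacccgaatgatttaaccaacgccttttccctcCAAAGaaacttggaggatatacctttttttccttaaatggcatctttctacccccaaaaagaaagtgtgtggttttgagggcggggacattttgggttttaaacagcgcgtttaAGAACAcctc
TCF7L2: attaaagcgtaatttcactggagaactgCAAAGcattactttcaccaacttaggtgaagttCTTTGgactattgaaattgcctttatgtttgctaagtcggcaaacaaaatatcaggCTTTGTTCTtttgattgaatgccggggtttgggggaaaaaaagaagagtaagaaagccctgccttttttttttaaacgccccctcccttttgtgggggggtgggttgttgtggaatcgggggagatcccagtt
The LEF1 stretch held 1 TCF/LEF core, 124 bases before the start, and 1 androgen response half-site, 10 bases before it, and no SOX core. The TCF7L2 stretch shown held 3 TCF/LEF cores at 222, 189 and 133 bases, the last overlapping a half-site in the reverse reading, TGTTCT, at 130 bases. Such short motifs are common: of 35116 promoter stretches of this length, 42.1% held a TCF/LEF core, 12.4% an androgen half-site and 24.6% a SOX core. The other TCF7L2 stretches held 0 and 1 TCF/LEF cores and 1 SOX core each. The CTNNB1 and LGR4 stretches of the same length held 0 matches to any of the motifs.

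In the control lines, the sensitive cells whose arrays did not serve to choose the genes, SOX9 and LEF1 were higher under MDV3100 than under DMSO in every line and in both replicate sets. The SOX9 signal went from 513.7 to 959.1 in Control 1, from 1527.6 to 2133 in Control 2 and from 528.4 to 945.5 in Control 3 in replicate 1. In replicate 2 it went from 270.6 to 632.7, from 191.1 to 217.9 and from 256 to 399.5 in the same lines. The DMSO and MDV3100 groups overlapped because the lines and sets started from unlike levels, with Control 2 of replicate 1 far above the rest, while each pair of arrays moved upward. On the log2(signal + 16) scale, on which all differences here are given, the mean SOX9 difference was 0.69 ± 0.35 (SD of 6 pairs, range 0.18 to 1.18).

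LEF1 moved by a more even amount. Its signal went from 341.2 to 616 in Control 1, from 245.5 to 386.9 in Control 2 and from 314 to 538.9 in Control 3 in replicate 1. In replicate 2 it went from 302.7 to 514.5, from 93.7 to 134.9 and from 368.5 to 656.5. Within replicate 1 all 3 MDV3100 values lay above all 3 DMSO values, and in replicate 2 the low Control 2 arrays made the groups overlap. How many of all genes separate in this way within replicate 1 was not counted. The mean LEF1 difference was 0.70 ± 0.14 (SD of 6 pairs, range 0.46 to 0.82). Both SOX9 and LEF1 were above 0 in all 6 control pairs, a pattern met by 5.19% of all genes tested.

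The test of this contrast depended on whether the pairing of arrays was used. With only the line as a block, limma with Benjamini-Hochberg adjustment called 0 of the 7 members at an adjusted p under 0.05, against 0.101% of all genes (12 of 11853; 865 had an unadjusted p under 0.05). The adjusted p was 0.893 for SOX9 (0.69 ± 0.57 SE) and 0.507 for LEF1 (0.70 ± 0.25 SE). With each line and replicate pair as a block, the same limma fit called 2 of 7 members, SOX9 (SE 0.13, adjusted p = 0.0188) and LEF1 (SE 0.09, adjusted p = 0.00517), both higher, against 2.58% of all genes called and 1.25% called higher. The dimmer SOX9 probe set gave 0.95 ± 0.18 SE (adjusted p = 0.0227 over 22948 probe sets, limma with the pair block). In the paired fit both genes kept their call without Control 2 (adjusted p = 0.00754 for SOX9 and 0.0064 for LEF1) and without its replicate 2 arrays alone (0.00677 and 0.00314). Both lost it without Control 1 (0.374 and 0.169) and without Control 3 (0.163 and 0.116), with differences of 0.52 to 0.68 for SOX9 and 0.66 for LEF1, when only 4 and 7 of all genes were called. Within a single set of 3 pairs neither gene was called by limma: the adjusted p for SOX9 was 0.0681 within replicate 1 and 0.247 within replicate 2, and for LEF1 0.0581 and 0.118. Actin 3′ to 5′ signal ratios, a measure of RNA integrity, were 3.18 to 4.12 under DMSO and 4.26 to 6.59 under MDV3100 in control lines of replicate 1. In replicate 2 they were 3.3 to 3.7 and 3.36 to 3.95. SOX9 and LEF1 each differed by 0.73 in replicate 1, and by 0.66 and 0.67 in replicate 2. Whether these responses go with the actin ratios was not tested. KLK2, an androgen-induced kallikrein used as a reference for the drug's action, differed by -1.98 on average in the control pairs of replicate 1 and by -1.02 in those of replicate 2 (-1.82 and -1.58 without Control 2, whose replicate 2 pair differed by 0.09).

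**Figure D1:**
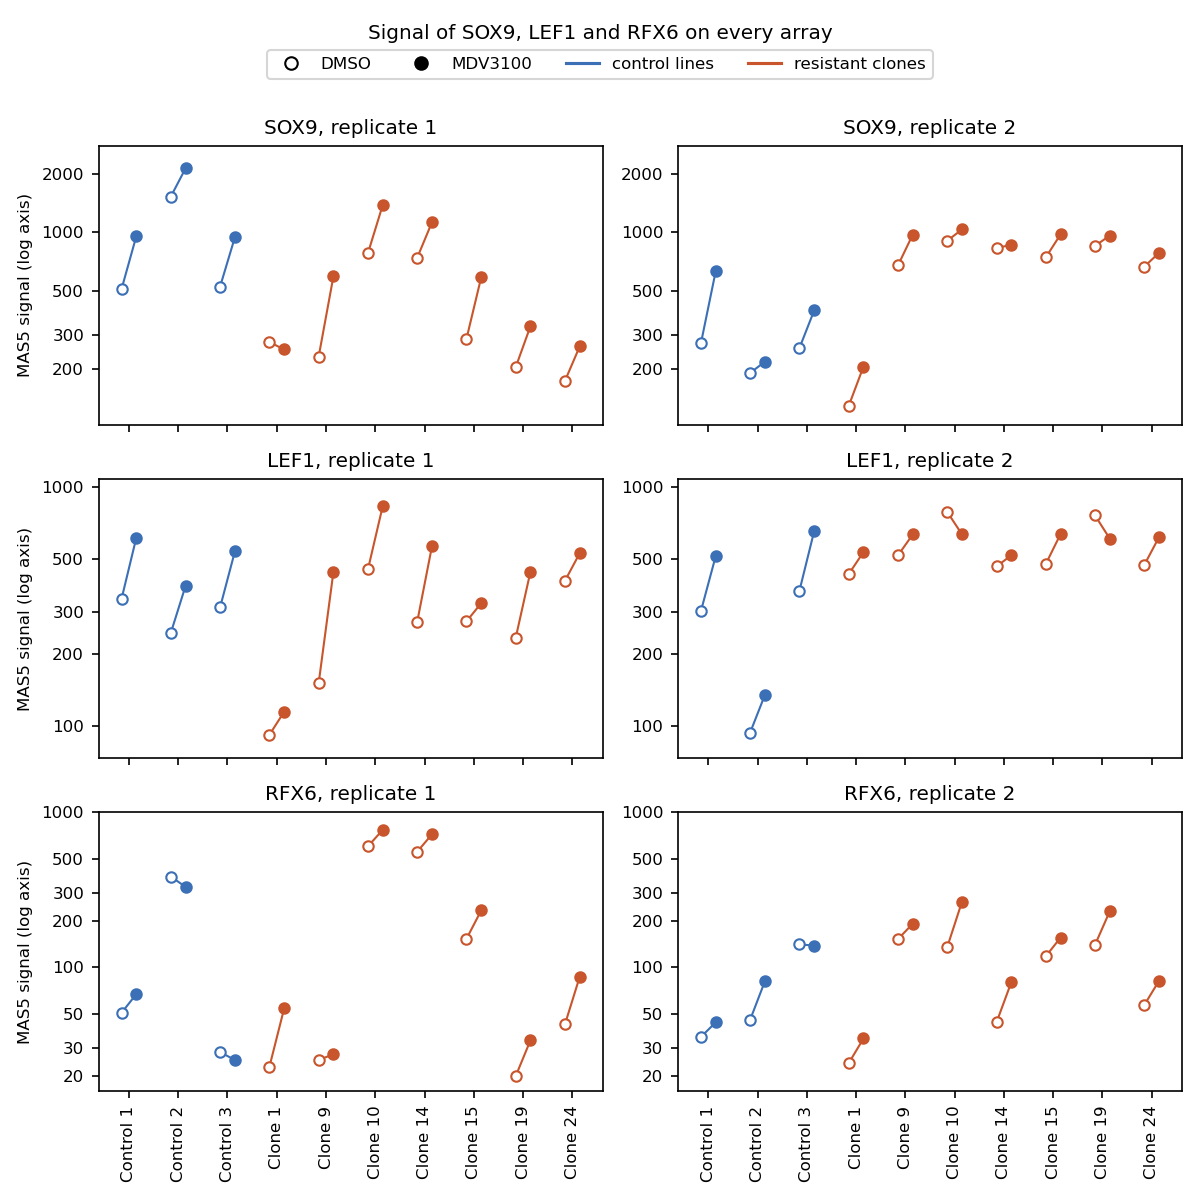
Signal (log axis) of SOX9, LEF1 and RFX6 on each of the 40 arrays, by line, with replicate 1 on the left and replicate 2 on the right. Open points are DMSO, filled points MDV3100, and a line joins the arrays of a pair. SOX9 and LEF1 slope upward in all 6 control pairs, and RFX6 in all 14 clone pairs from starting signals between 19.9 and 604.3.

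The other members did not follow SOX9 and LEF1 in the control lines by either test. TCF7L2, a TCF partner of beta-catenin, differed by 0.14 (adjusted p = 0.63 with the pair block, limma), with 3 of 6 pairs above 0. CTNNB1 itself differed by 0.10 (adjusted p = 0.726), again with 3 of 6 pairs above 0. The feedback target AXIN2 differed by 0.11 (adjusted p = 0.746): its signal went from 162.4 to 239.8 in Control 1 and from 134.6 to 216.1 in Control 2 of replicate 1, but from 155 to 118 in Control 3. In replicate 2 AXIN2 differed by between -0.24 and 0.12. LGR4 moved much as AXIN2 did in replicate 1, from 109.5 to 207.6 in Control 1, from 65 to 162.4 in Control 2 and from 94.4 to 99.6 in Control 3. In replicate 2 the LGR4 pairs differed by only -0.12 to 0.01, and the mean over both sets was 0.32 (adjusted p = 0.382, pair block, limma). RFX6 differed by 0.14 (adjusted p = 0.605), with 3 of 6 pairs above 0. NKD1, the other feedback target, had control signals of 11.1 to 21.7, close to the floor of these arrays. With no brightness limit its control response was 0.04 (adjusted p = 0.998, limma, line block).

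In the clones the same 8 genes are described without a test. SOX9 was higher under MDV3100 in 13 of 14 clone pairs and LEF1 in 12 of 14, with larger differences in replicate 1 than in replicate 2. The SOX9 signal of the 7 clones in replicate 1 was 174 to 782.8 under DMSO (median 274.8) and 251.7 to 1380 under MDV3100 (median 590.2). In replicate 2 it was 129.4 to 907.3 (median 745.3) and 205.8 to 1037.3 (median 964.5). The DMSO and MDV3100 ranges overlapped in both sets. The largest SOX9 difference was 1.31 in Clone 9 of replicate 1, where the signal went from 231.1 to 596.2, and the single pair below 0 was Clone 1 of replicate 1, from 274.8 to 251.7. The reference gene KLK2 differed by -2.60, -2.46 and -2.20 in Clones 9, 10 and 14 of replicate 1. In Clones 1, 15, 19 and 24 of that set it differed by -0.29 to 0.25, and in the 7 clones of replicate 2 by -0.56 to 0.25. Whether the SOX9 and LEF1 responses go with that of KLK2 was not tested.

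LEF1 in the clones was 91.6 to 452.6 under DMSO (median 272.4) and 114.5 to 833.2 under MDV3100 (median 443.8) in replicate 1. In replicate 2 it was 432.8 to 789 (median 477) and 519 to 637.2 (median 619.3). In that set the clones already had high LEF1 under DMSO, and the 2 highest, Clone 10 and Clone 19, were lower under MDV3100, from 789 to 635 and from 762.5 to 609.2. The largest LEF1 difference, 1.46, was again that of Clone 9 in replicate 1, from 150.7 to 442.3. Averaged over clones, the response was below that of the control lines by 0.19 for SOX9 (clones minus controls -0.19) and by 0.27 for LEF1 (-0.27). Among all genes the difference of responses was called for 0.717% and the clone response for 0.506%, from which nothing is read about the members.

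The third gene chosen on the clone response, RFX6, had a response of like size in both sets. Its signal was higher under MDV3100 in all 14 clone pairs, by 0.07 to 0.90, and the mean over clones was 0.51 ± 0.15 (SD of 7 clones). In replicate 1 the clones spanned 19.9 to 604.3 under DMSO (median 43) and 27.5 to 771.4 under MDV3100 (median 87.2). In replicate 2 they spanned 24.1 to 152.3 (median 118) and 34.8 to 265.9 (median 155.7). It was 0.86 in Clone 1 of replicate 1, a dim clone whose signal went from 22.8 to 54.4, and 0.34 in Clone 10 of the same set, the brightest, from 604.3 to 771.4. Only 9 of all genes, or 0.0759%, were above 0 in all 14 clone pairs, but RFX6 was chosen on this contrast and nothing is read from that share.

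The pathway core and its targets showed no common direction in the clones. TCF7L2 differed by 0.05 ± 0.15 (SD of 7 clones), CTNNB1 by 0.00 ± 0.19, LGR4 by -0.06 ± 0.29 and NKD1 by 0.02 ± 0.23. AXIN2 differed by -0.14 ± 0.14, and its sets disagreed. In replicate 1 AXIN2 was lower under MDV3100 in all 7 clones, by between -0.06 and -0.49, with signals of 137.9 to 273.5 under DMSO (median 151.5) and 94.1 to 243.2 under MDV3100 (median 128.3). That pattern was met by 4.18% of all genes. In replicate 2 AXIN2 was above 0 in 4 of 7 clones, with signals of 122.1 to 196 (median 138.2) and 101.5 to 229.9 (median 159.2). In replicate 1, 6 of the 7 clones were higher for SOX9 and all 7 for LEF1, and in replicate 2 all 7 were higher for SOX9 and 5 for LEF1. Both genes were chosen on this response, and a relation to AXIN2 was not tested.

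**Figure D2:**
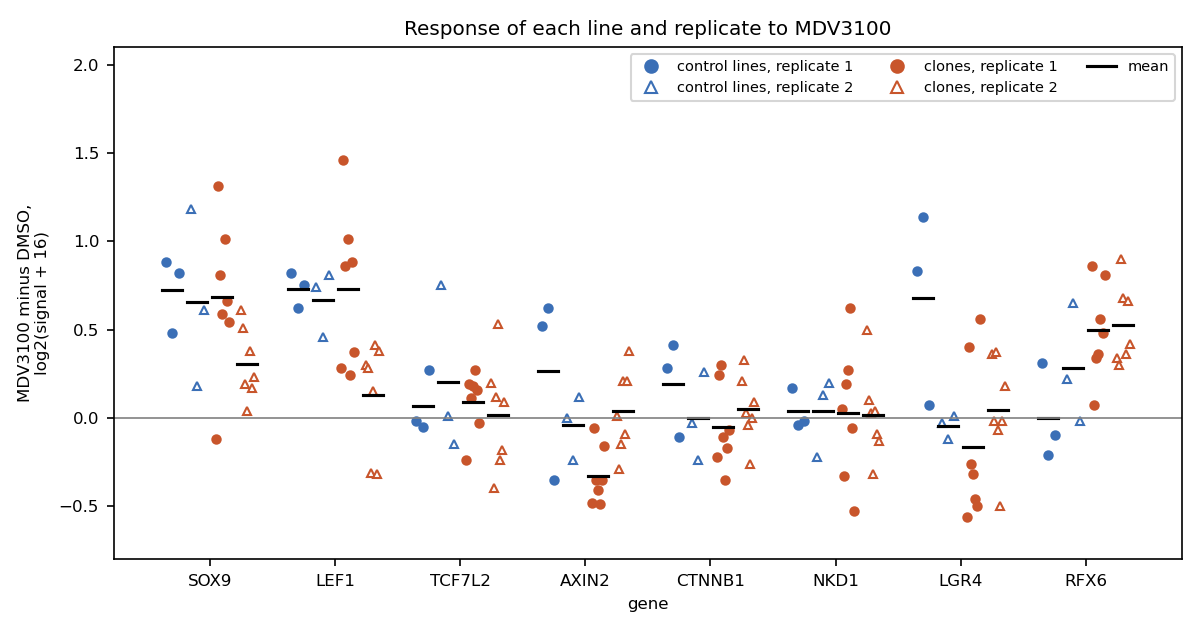
Difference between MDV3100 and DMSO on the log2(signal + 16) scale for the 8 genes, 1 point per line and replicate, with the mean of each group as a black bar. SOX9 and LEF1 lie above 0 in all 6 control pairs and in 13 and 12 of 14 clone pairs, RFX6 in 14 of 14 clone pairs, and the other genes lie on both sides of 0.

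The difference of SOX9 and that of LEF1 went together over the 20 pairs of arrays, with a Pearson correlation of 0.681. RFX6 ran the other way, at -0.566 with SOX9 and -0.636 with LEF1, although its mean was above 0 in the clones as theirs was. AXIN2 went with LGR4 (0.726) and CTNNB1 (0.565), and was near 0 with SOX9 (-0.079) and LEF1 (-0.058). The genes whose response was most like that of SOX9 over the same 20 pairs were CYP1A2 (0.789), which encodes a xenobiotic-metabolising cytochrome P450, RNFT2 (0.766), DCAKD (0.765), the amino acid transporter gene SLC7A5 (0.756) and the kinase gene MAP3K8 (0.751). Those most like LEF1 were LUZP2 (0.817), NCR3LG1 (0.799), the receptor phosphatase gene PTPRK (0.798), SAYSD1 (0.791) and ANTXR1 (0.785). These values are descriptions: pairs of a line share its cells, pairs of a set share whatever set the replicate sets apart, and the 10 genes are the top of a list of 11853.

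For several members the level of a line differed more between replicate sets than between treatments, and TCF7L2 was the clearest case. In replicate 1 its signal was 672.2 to 977.3 on the 12 arrays of the 6 clones other than Clone 1 (median 813.8), 580.3 and 687.9 in Clone 1, and 477.4 to 752.5 in the control lines. In replicate 2 those 6 clones read 138.6 to 228.3 (median 189.2), the control lines 480.9 to 851.4, and Clone 1 read 448.1 and 516.1. The 12 low arrays did not overlap with any other array in the study, under either treatment. How many of all genes set these 12 arrays apart in the same way was not counted.

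Replicate 2 was below replicate 1 for TCF7L2 in 7 of 7 clones and 0 of 3 control lines. Mean actin 3′ to 5′ ratios were also lower in replicate 2. In clones they went from 4.06 to 3.14 under DMSO and from 4.37 to 3.02 under MDV3100. In control lines they went from 3.79 to 3.46 and from 5.11 to 3.57. Whether the set differences of TCF7L2 or of other genes go with these ratios was not tested. Over 10 lines the set difference was -1.24 ± 0.32 (SE, adjusted p = 0.0176, limma), and 1 of 7 members was called, against 26.3% of all genes called, 16.6% lower and 9.7% higher. The other 5 TCF7L2 probe sets that passed the brightness limit gave -0.55 to -1.25 and were all called (adjusted p from 0.0102 to 0.0172, limma). TCF7L2 was also the only member called for a level difference between clones and control lines (-0.63 ± 0.13 SE, adjusted p = 0.0227, limma; 1 of 7 members, against 9.17% of all genes called and 4.22% called lower). That mean joins opposite signs: the replicate 1 arrays gave 0.41 for clones minus controls (adjusted p = 0.0552), and those of replicate 2 gave -1.66 (adjusted p = 0.0101, limma). The pooled call was lost without Control 1 (adjusted p = 0.0854), Control 2 (0.0732), Control 3 (0.0918) or Clone 15 (0.051), in DMSO arrays alone (-0.58, adjusted p = 0.0671) and without the Control 2 and Clone 1 arrays of replicate 2 (-0.53, adjusted p = 0.0769).

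SOX9 and LEF1 also differed between sets in single lines, though their set differences were not called over the 10 lines. SOX9 was lower in replicate 2 in 3 of 7 clones (Clone 1 by -0.64, Clone 10 by -0.10 and Clone 14 by -0.11) and in 3 of 3 control lines, and higher in the other 4 clones, by 1.03 to 1.74. The SOX9 signal of the 6 clones other than Clone 1 was 174 to 1380 in replicate 1 (median 460.9) and 668.4 to 1037.3 in replicate 2 (median 857.7). In the control lines it was 513.7 to 2133 in replicate 1 (median 952.3) and 191.1 to 632.7 in replicate 2 (median 263.3). In replicate 2 those 6 clones therefore lay above the control lines, while Clone 1 read 129.4 and 205.8, below or within the control range. Clone 1 was set apart after seeing the data, and how many of all genes separate in this way was not counted. In replicate 1 the ranges of the 6 clones and the control lines overlapped, and the clone median was the lower. SOX9 in clones minus controls was -1.18 in replicate 1 (adjusted p = 0.114), 1.12 in replicate 2 (adjusted p = 0.094) and -0.03 over both (adjusted p = 0.971, limma). LEF1 gave -0.29 (adjusted p = 0.628), 0.97 (adjusted p = 0.0574) and 0.34 (adjusted p = 0.476), and was higher in replicate 2 in 7 of 7 clones and 1 of 3 control lines. Control 2 changed most of the control lines, by -3.05 for SOX9 and -1.34 for LEF1 between sets.

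**Figure D3:**
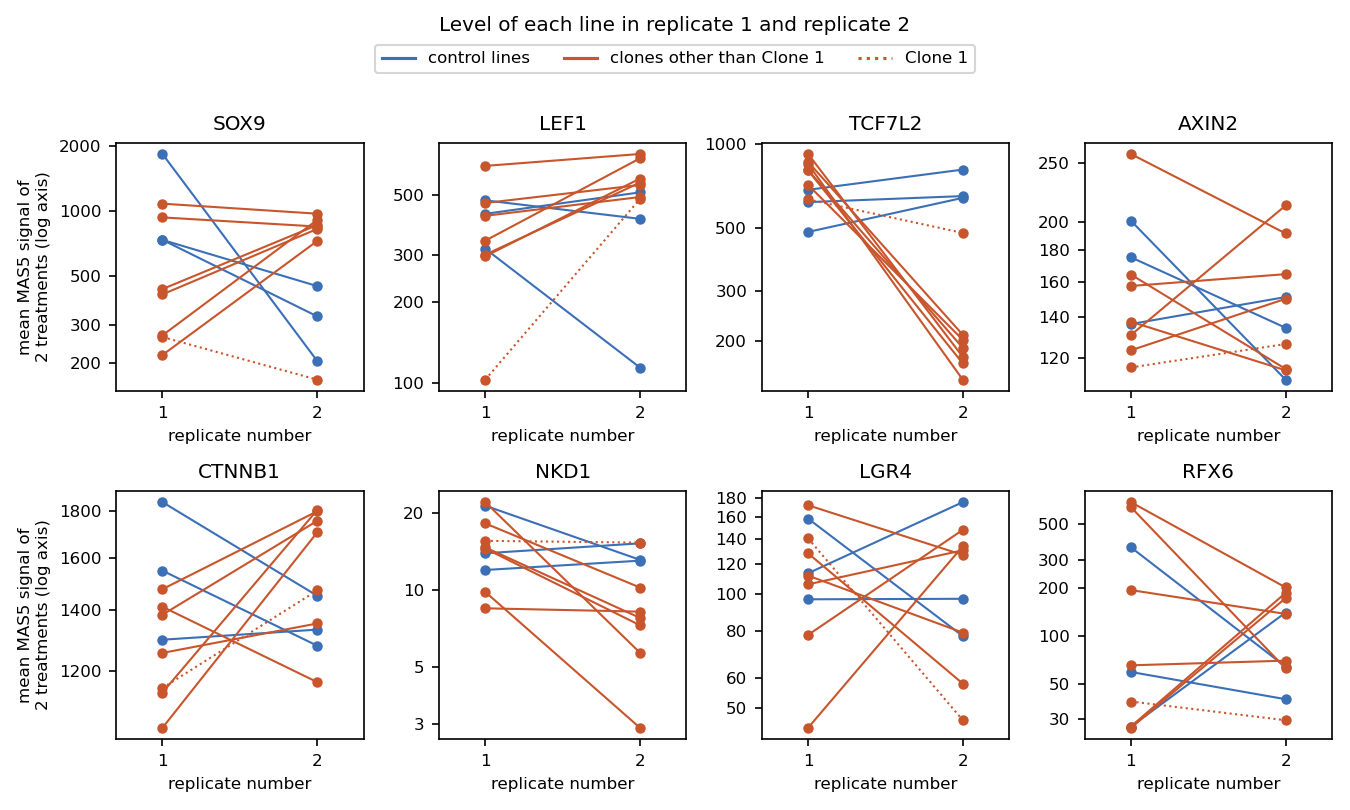
Mean signal of the DMSO and MDV3100 arrays (log axis) of each line in replicate 1 and replicate 2 for the 8 genes, with a line joining the sets and Clone 1 dotted. For TCF7L2 the 6 clones other than Clone 1 drop from above to below the control lines, which stay between 477.4 and 851.4 on single arrays, and for SOX9 those 6 clones lie above the control lines in replicate 2.

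The remaining members had no called level or set difference. CTNNB1 was bright and even, at 998.4 to 2106 over all 40 arrays, with a set difference of 0.16 (adjusted p = 0.306) and a clone minus control difference of -0.05 (adjusted p = 0.792, limma). AXIN2 signals ran from 94.1 to 273.5, with clones minus controls at 0.02 (adjusted p = 0.954), and Clone 24 was the highest line at 225 ± 46.1 (SD of 4 arrays). LGR4 ran from 34 to 208.1 and differed by -0.16 between classes (adjusted p = 0.542). RFX6 ran from 19.9 to 771.4, both on clone arrays of replicate 1. Single lines also differed in RFX6 between sets, Clone 14 by -3.10, Control 2 by -2.26, Clone 19 by 2.21 and Clone 9 by 2.14. Its clone minus control difference was 0.37 (adjusted p = 0.685, limma). NKD1 signals were 0.8 to 30.2, and in replicate 2 those of the 6 clones other than Clone 1 were 0.8 to 11.2 (median 7.35) against 11.1 to 17.6 in the control lines. With no brightness limit NKD1 had a set difference of -0.26 (adjusted p = 0.0545) and a level difference of -0.19 (adjusted p = 0.333, limma).

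Ordered by the mean of their 4 arrays, the lines ran for SOX9 from Clone 10 (1027 ± 257, SD), Control 2 (1017 ± 971) and Clone 14 (891.7 ± 166) through Clone 15, Clone 9, Control 1, Clone 19, Control 3 and Clone 24 to Clone 1 (215.4 ± 64.1). For LEF1 the order began with Clone 10 (677.4 ± 172), Clone 19 and Clone 24 and ended with Clone 1 (293.7 ± 224) and Control 2 (215.2 ± 131). For TCF7L2 it began with Control 3 (747.4 ± 96), Control 1, Control 2 and Clone 1 and ended with Clone 19 (457.6 ± 298). In each of these 3 orders, 0 of the 9 neighbouring pairs differed by more than the larger of their SDs. The same held for CTNNB1, LGR4 and NKD1, and 1 neighbouring pair exceeded it for AXIN2 and for RFX6.

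Other Wnt pathway genes were counted from lists of 118 genes without the members, of which 67 were bright enough to test: 5 ligands, 11 receptors, 1 secretion factor, 7 antagonists, 19 genes of the destruction complex and Dishevelled, 12 nuclear cofactors and 16 targets, some on more than 1 list. In the control lines 0 of 67 were called by limma with the line block, and 8 had an unadjusted p under 0.05. With the pair block 4 rose and 1 fell, or 7.46% against 2.58% of all genes. Those that rose were WNT5A, a largely non-canonical ligand (0.83, adjusted p = 0.0461), the receptor FZD7 (0.60, 0.0351), the co-repressor TLE1 (0.46, 0.047) and BAMBI, a Wnt target that encodes a decoy receptor for TGF-beta ligands (0.64, 0.0143), and the one that fell was the receptor FZD5 (-0.42, 0.0495, limma for all). FZD7, TLE1 and BAMBI were above 0 in 6 of 6 control pairs and WNT5A in 5. The count was 4 without the Control 2 arrays of replicate 2, 3 without Control 2, and 0 without Control 1 or without Control 3. The median difference of the 67 was 0.08, beside 0.01 for all genes, and that of the 16 targets was -0.02. The destruction complex genes, which include GSK3B and APC, had 0 of 19 called, and the largest difference among them was -0.31 for AMER1.

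In the clones, 1 of 67 was called, or 1.49% against 0.506% of all genes. It was the ligand WNT10B, which fell by 0.29 on the log2 scale (adjusted p = 0.046, limma) and was called in none of the fits that left out Clone 1, 9, 10, 14, 15 or 19. With the pair block 2 of 67 were called, WNT10B (adjusted p = 0.0222, limma) and TLE1, which rose, beside 1.37% of all genes. Of 16 targets, 0 were called, and the largest difference was 0.35 for ID2. The response of the 67 differed between clones and control lines for 0 genes at an adjusted p under 0.05 (limma, with either the line or the pair as the replicate), and 15 had an unadjusted p under 0.05 with the line. Outside the Wnt lists, RFX3, a relative of RFX6 with a role in ciliated cells, rose in the control lines by 0.80 with the pair block (adjusted p = 0.0153, limma) and had a lower response in the clones (clones minus controls -0.75, adjusted p = 0.0339). The first call was lost without Control 1 (adjusted p = 0.354) or Control 3 (0.15). The second was lost with the pair as the replicate (adjusted p = 0.184, limma) and within either replicate set (0.259 and 0.29). It was also lost without Control 1 (0.223), Control 3 (0.0722), Clone 10 (0.0599) or Clone 19 (0.0674). RFX6 differed by 0.37 in the other direction, a value with no test. Of 6 other SOX genes measured, 0 were called for a response in either class, and SOX8 (-0.57, adjusted p = 0.0465) and SOX12 (-0.29, 0.0346, limma) were lower in the clones in level, beside 4.22% of all genes. RFX3 was also lower in the clones in level (-0.59, adjusted p = 0.0206, limma). Without Control 1 or without Control 2, 0 of all genes were called for a level difference.

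For levels, 10.4% of the 67 were called, beside 9.17% of all genes called in either direction and 4.22% called lower. All calls, 7 of 67, were lower in the clones and 0 were higher. They were the receptor genes FZD7 (-0.46) and LRP5 (-0.31), the antagonists KREMEN1 (-0.36) and RNF43 (-0.62), a ubiquitin ligase that removes Frizzled receptors, the beta-catenin cofactors BCL9L (-0.37) and PYGO1 (-0.59), and the co-repressor TLE3 (-0.34), with adjusted p from 0.0192 to 0.0341 (limma). The count was 0 without Control 1 or without Control 2, 1 without Control 3 (PYGO1), 2 without Clone 14 or Clone 15 and 19 without Clone 1. The fit without Clone 1 called 25.5% of all genes. Replicate 1 alone gave 10 calls, all lower, beside 15.1% of all genes. Replicate 2 alone gave 17 lower and 3 higher, beside 23.4%. Of the 7 genes named, only PYGO1 was called in both sets, and FZD7 was called in neither. Between replicate sets, 24 of 67 were lower in replicate 2 and 3 higher, 40.3% called against 26.3% of all genes. By direction, 35.8% were lower and 4.48% higher, beside 16.6% and 9.7% of all genes. Among those lower were TNFRSF19 (-1.08, adjusted p = 0.0062), the receptor PTK7 (-1.0, 0.014), TLE2 (-0.82, 0.00853), RNF43 (-0.80, 0.00683) and MYC (-0.73, 0.0403), and those higher were ID2 (0.66, 0.00751), ETS2 (0.38, 0.0268) and PYGO2 (0.33, 0.023, limma for all). The count fell to between 11 and 15 of 67 when any of Clones 9, 10, 14, 15, 19 or 24 was left out, with 15.2% to 18.0% of all genes called. The 24 lower calls rest on means over all 10 lines, whereas TCF7L2 was lower in 7 of 7 clones and 0 of 3 control lines. Whether these genes go with TCF7L2 was not tested, and CTNNB1 was not called.

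**Figure D4:**
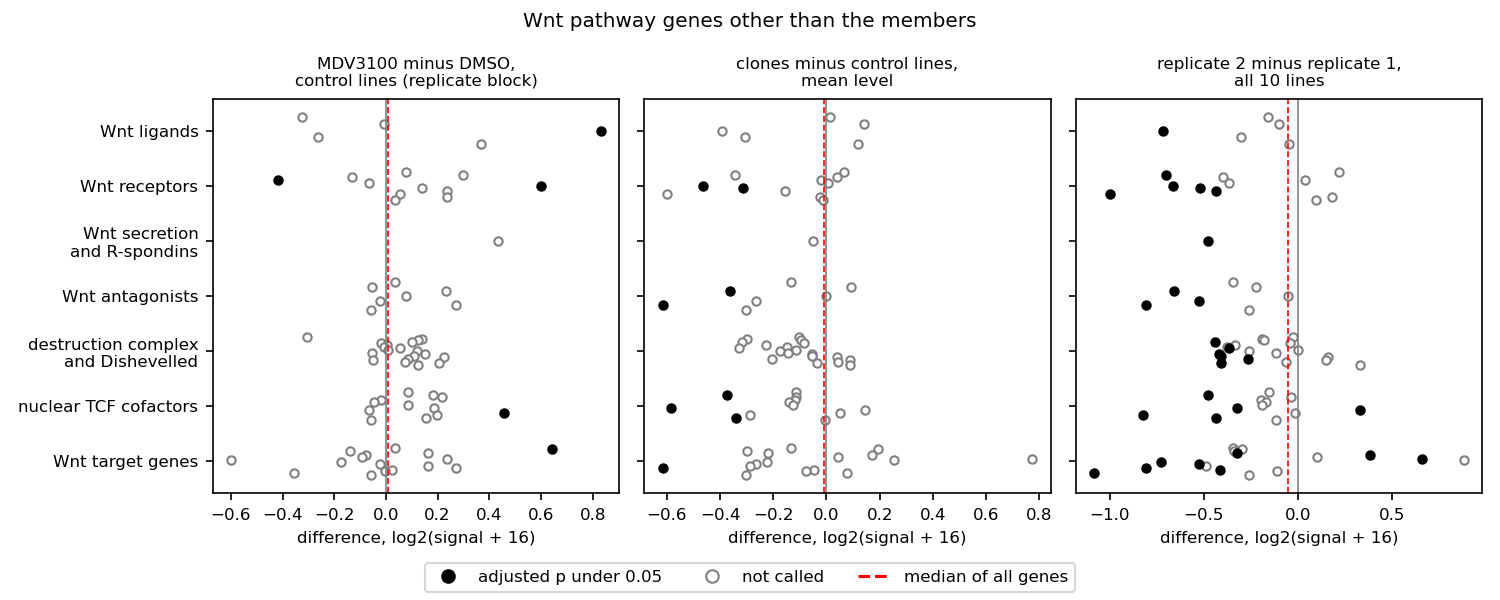
Differences on the log2(signal + 16) scale for the 67 measured Wnt pathway genes other than the members, by list, in 3 comparisons. Black points passed an adjusted p of 0.05 and the dashed line is the median of all 11853 genes. Calls are few for MDV3100 in control lines (4 higher, 1 lower), 7 for the level of clones, all lower, and 27 for the replicate sets, 24 of them lower.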

How the data were processed

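The 40 arrays, their groups and their pairs were taken from the labels. The authors deposited 1 linear signal intensity for each probe set and array. Per the submitters' processing notes these were made with MAS5, whose version is not given in the sources used here. With 2% of probe sets trimmed from either end, the mean signal of every array was 150, and array medians were 10.7 to 18.4, so values were not scaled again. MAS5 scaling of this kind assumes a like overall signal on all arrays. Signals were converted to log2(signal + 16), a scale on which changes of dim genes look smaller than they are. Probe sets were kept where their mean reached the median of all 54675, at log2 4.815 or a signal of about 12.1, which left 27338. The platform annotation pairs 41097 probe sets with 1 gene, 1801 with several and 11777 with none. Only the first were named, 0 symbols needed updating, 54 were absent from the current gene table and kept their symbol, and the brightest probe set stood for each of 11853 genes. Of the columns of values, 0 were left unmapped. The number of arrays limits the precision.

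Tests used limma 3.58.1 in R 4.3.3 with Benjamini-Hochberg adjustment over all genes. They compared MDV3100 with DMSO in the 12 control arrays (line as block), and, with the line as the replicate, the response of the 7 clones, its difference from the 3 control lines, the level of clones against control lines, and replicate 2 against replicate 1. The code was tested on simulated data. The replicate numbers were taken to pair arrays across treatments within a line, and the pair block is given beside each result it changes. The deviations of DMSO and MDV3100 arrays from group means correlated at 0.479 or more in all 20 pairs. Those group means joined both sets, so the correlations also hold the difference between sets. Arrays of unlike lines within a set were not compared, so pairing by line was not tested. For the difference of responses no block is fitted: each pair then counts as a replicate, and the pairs of a line are taken as independent. The members and the gene lists were chosen with earlier results of these data known. All 8 members are named. From the Wnt, SOX and RFX lists, genes called in a comparison are named (at most 6 a list, largest first). With none called, the gene with the largest difference is named for some lists only. Calls of androgen-induced genes are printed only for the difference of responses, with KLK2 as a reference. The 5 genes whose responses were most like those of SOX9 and of LEF1 are named in addition. Within the replicate set comparison only some of the called genes are printed. Alternatives were other pseudocounts (4 and 64), no brightness limit, quantile normalization, the mean of all probe sets, an intensity trend, single treatments, single sets and each line left out. Leaving out the Control 2 and Clone 1 arrays of replicate 2, and, with the pair block or with lines or sets left out, the counts of list genes and the values of SOX9, LEF1, RFX3, TMPRSS2, FKBP5, PMEPA1 and KLK2, were chosen after seeing the data.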

Additional observations from a re-analysis of the deposited data

Results flagged for a closer look

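Of 72 groups of 4 to 10 arrays of the members, 10 held an array whose gap to its neighbour exceeded Dixon's 95% critical value, where chance gives about 1 in 20 groups. For SOX9 these were Control 2 of replicate 1 among the control DMSO arrays (1527.6, next 528.4) and Clone 1 of replicate 2 among the clones, low under DMSO (129.4, next 668.4) and under MDV3100 (205.8, next 787.4). For TCF7L2 Clone 1 of replicate 2 was high under DMSO (448.1, next 228.3) and MDV3100 (516.1, next 209.7). For AXIN2 Clone 24 of replicate 1 was high under DMSO (273.5, next 186.6) and MDV3100 (243.2, next 142.4). For RFX6 Control 2 of replicate 1 was high among control arrays under DMSO (385.6, next 140.6) and MDV3100 (330.7, next 138.5). For NKD1 Clone 15 of replicate 1 was high under MDV3100 (30.2, next 16.2).

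The response to MDV3100 differed between clones and control lines, by limma's test of the difference itself, for 4 listed genes. It was lower in the clones for RFX3 (-0.75) and higher for the androgen-induced genes TMPRSS2 (0.85), FKBP5 (0.52) and PMEPA1 (0.93). With each line and replicate pair counted as a replicate, all 4 calls were lost (limma, adjusted p of 0.184, 0.167, 0.128 and 0.12 in the same order). That version takes the pairs of a line as independent. All 4 calls were also lost within either replicate set and without Control 1, Control 3 or Clone 19. TMPRSS2 also lost its call without Control 2 or without Clone 1, 10, 15 or 24, RFX3 without Clone 10 and PMEPA1 without Clone 15.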

How the results depend on the processing

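Counts of called genes depended on the settings. The control response (12 genes) gave 306 with the replicate block, 718 as 3 differences of line means and 47 without the Control 2 and Clone 1 arrays of replicate 2. The range was 0 to 140 when a line or set was left out. SOX9 was called with the replicate block (0.691, adjusted p = 0.0188) and as line means (adjusted p = 0.0133), and LEF1 with the block (0.70), as line means (adjusted p = 0.00309) and without those arrays (0.748, adjusted p = 0.0264). The clone response (60 genes) gave 24 and 155 with pseudocounts of 4 and 64, 20 with no brightness limit, 30 after quantile normalization, 112 with the mean of probe sets, 0 with an intensity trend (1872 at an unadjusted p under 0.05), 162 with the replicate block, 14 without those arrays and 0 to 239 with a line or set left out. The difference of responses (85) gave 14 with a pseudocount of 4, 26 with no limit, 54 with the mean of probe sets and 34 with a trend. It gave 0 with the pair as the replicate (1415 at an unadjusted p under 0.05), 132 without those arrays and 0 to 109 with a line or set left out. The level difference (1087) gave 14 in DMSO arrays and 0 to 3019 with a line or set left out. The set difference (3120) gave 1776 in MDV3100 arrays and 1796 to 3706 with a line left out.

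Reversals of members were all of uncalled values, except for TCF7L2, whose level difference ran from -1.663 without replicate 1 to 0.412 without replicate 2. In the control response CTNNB1 was -0.017 with the mean of probe sets and -0.10 and -0.046 on its other probe sets, and TCF7L2 was -0.025 on 1 of its other probe sets. With single sets the control response of AXIN2 ran from -0.042 to 0.264, of CTNNB1 from -0.006 to 0.196, of LGR4 from -0.046 to 0.68 and of RFX6 from -0.001 to 0.286. The level difference of SOX9 ran from -1.178 to 1.125, of LEF1 from -0.288 to 0.968, of AXIN2 from -0.139 to 0.172 and of CTNNB1 from -0.294 to 0.205. In DMSO arrays alone it was 0.071 for SOX9, 0.004 for CTNNB1 and 0.03 for LGR4, and in MDV3100 arrays -0.111 for AXIN2. Without those arrays it was -0.03 for LEF1, -0.046 for AXIN2 and 0.047 for LGR4, and on a dimmer probe set it was 0.001 for CTNNB1. The set difference was 0.125 for SOX9 in DMSO arrays, 0.438 for SOX9 and 0.077 for RFX6 without those arrays, and -0.148 for CTNNB1 on a dimmer probe set. With a line left out it ran from -0.213 to 0.318 for SOX9, from -0.24 to 0.054 for LGR4 and from -0.452 to 0.138 for RFX6. The replicate block changed no other call of a member. The causes of these changes were not tested.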
